A study of Arabidopsis thaliana with 6 samples.

Results

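The iron uptake and coumarin secretion genes described here are 10 loci of Arabidopsis thaliana, 10 of 27374 annotated loci with values in the deposited files. They are IRT1, IRT2, FRO2, FRO3, F6'H1, S8H, CYP82C4, PDR9, MYB72 and BGLU42. They were selected on their measured FPKM in the same comparison of genotypes, by locus code, so their own values are given as a description and without a test. RNA was measured by sequencing in 6 libraries of Col-0 seedlings, 5 days old and harvested whole from MS plates kept at 23 °C with a day of 16 h and a night of 8 h. Of these, 3 libraries were wild-type and 3 carried the fip37-4 allele together with the LEC1:FIP37 transgene. FIP37 belongs to the methyltransferase machinery for N6-methyladenosine in mRNA, and strong alleles are embryo-lethal. In the transgene the embryo-active LEC1 promoter drives FIP37, so that homozygous seedlings can be obtained. Nothing in the labels ties replicates to separate plates or sowings. The p-values therefore measure only the spread among these libraries, and that spread may be technical.

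FIP37 (AT3G54170) itself was at 8.99, 9.03 and 8.96 FPKM (fragments per kilobase of transcript, scaled to the mapped fragments) in wild-type replicates 1 to 3. It was at 80.6, 65.0 and 67.5 FPKM in the libraries labelled fip37-4 LEC1:FIP37. The targeted gene was thus higher, not lower, in the libraries labelled with the mutant allele. Transgene and endogenous transcripts are not told apart in the files. Every direction below follows these labels, with wild-type as the reference. Of 19383 features tested over the transcriptome, 58.6% were called, 27.6% higher and 30.9% lower (limma, Benjamini-Hochberg adjusted p below 0.05). Pearson correlations of log2 values were 0.993 at the lowest within wild-type, 0.989 at the lowest within fip37-4 LEC1:FIP37 and 0.966 at the highest between the groups.

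Iron is abundant in soil but mostly insoluble. Arabidopsis roots take it up by the reduction strategy, in which proton pumps acidify the surroundings, FRO2 reduces ferric iron at the root surface and IRT1 carries the ferrous iron into epidermal cells. The same cells make and secrete catecholic coumarins, which mobilise iron outside the root. F6'H1 makes the precursor of scopoletin, S8H turns scopoletin into fraxetin, CYP82C4 oxidises fraxetin to sideretin and PDR9 (also named ABCG37) exports the products. MYB72 is a transcription factor of this secretion pathway, and BGLU42 is a beta-glucosidase linked to the release of the coumarins from their glycosides. The basic helix-loop-helix protein FIT, with partners of the bHLH38 group, switches on much of this set when iron is short.

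IRT1 (AT4G19690), the main root transporter of ferrous iron, was at 0.258, 0.429 and 0.375 FPKM in wild-type replicates 1 to 3. In the fip37-4 LEC1:FIP37 libraries it was at 27.4, 21.2 and 24.97 FPKM. The groups did not overlap, the ratio of their mean FPKM was 69.3, and the log2 difference was 4.87 on the log2(FPKM + 0.5) scale, which understates changes of low genes. IRT1 was almost silent in wild-type, where an estimated 11.7, 22.1 and 11.7 fragments lay behind the values, against 985, 1050 and 852 fragments in the other group. In whole seedlings more cells of a type and more RNA per cell cannot be told apart. Among the 10 loci IRT1 passed from the fifth mean FPKM in wild-type, where it was near FRO2, to the highest in fip37-4 LEC1:FIP37.

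FRO2 (AT1G01580), the ferric chelate reductase of the root surface that works with IRT1, was at 0.242, 0.268 and 0.157 FPKM in wild-type. Its values in the fip37-4 LEC1:FIP37 libraries were 5.80, 5.90 and 6.05 FPKM. The latter values were close to each other, those of wild-type less so, and the groups did not overlap. The ratio of the means was 26.6, with a log2 difference of 3.15. FRO3 (AT1G23020), a reductase of mitochondria that is expressed in the vasculature and also induced by iron shortage, differed much less. It stood at 7.46, 8.04 and 7.41 FPKM in wild-type and at 10.9, 10.1 and 10.4 FPKM in fip37-4 LEC1:FIP37, a ratio of 1.37 without overlap.

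IRT2 (AT4G19680), a close relative of IRT1 that sits on internal membranes of root epidermal cells, stayed low throughout. Its libraries stood at 0.0751, 0.083 and 0.184 FPKM in wild-type and at 0.341, 0.404 and 0.649 FPKM in fip37-4 LEC1:FIP37. The groups did not overlap, but only an estimated 14.6 fragments in all stood behind the wild-type values and 54.5 behind the others. In RefSeq's annotation of assembly TAIR10.1, IRT2 and IRT1 lie on the same strand of chromosome 4 with 2505 bases between them, and their transcripts share no stretch of 50 bases. The level of IRT2 in fip37-4 LEC1:FIP37, 0.465 ± 0.163 FPKM (SD, n = 3), was far under the 24.5 ± 3.12 FPKM of its neighbour.

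The coumarin enzymes among the members, CYP82C4, F6'H1 and S8H, differed between the groups by unlike ratios. CYP82C4 (AT4G31940), the cytochrome P450 that makes sideretin, was nearly undetected in wild-type at 0.0317, 0.0883 and 0.0499 FPKM, or an estimated 1.93, 5.79 and 2.89 fragments. In fip37-4 LEC1:FIP37 it was at 9.73, 9.57 and 9.95 FPKM. The ratio of the means was 172, which is imprecise because 10.6 fragments carry the wild-type side, and the log2 difference was 4.204. CYP82C4 shares 8.5% of its stretches of 50 bases with AT4G31950 and AT4G31970 (CYP82C3 and CYP82C2), so reads may be split among them. CYP82C2 was at 0.611, 0.607 and 0.285 FPKM in fip37-4 LEC1:FIP37 and listed at 0, 0 and 0.0198 FPKM in wild-type, and CYP82C3 was at most 0.0754 FPKM in any library.

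F6'H1 (AT3G13610), the dioxygenase of the committed step towards scopoletin, was already expressed in wild-type, at 3.94, 4.24 and 4.61 FPKM. It was at 8.89, 9.36 and 8.81 FPKM in fip37-4 LEC1:FIP37, a ratio of 2.12 with no overlap. Its locus overlaps AT3G13620 on the other strand by 67 bases and shares 1.27% of its stretches of 50 bases with it. PDR9 (AT3G53480), the exporter, was at 8.44, 8.27 and 8.02 FPKM in wild-type and at 17.6, 17.1 and 16.97 FPKM in the other group, a ratio of 2.09. The enzyme at the start of the pathway and the transporter at its end were thus close in their ratios, with log2 differences of 1.00 and 1.02. S8H (AT3G12900), the dioxygenase between them, was hardly detected. It was listed at 0.0904, 0.0555 and 0 FPKM in wild-type and at 0.293, 0.324 and 0.685 FPKM in fip37-4 LEC1:FIP37. An estimated 6.87 fragments in all lay on the first side and 53.7 on the second, so the ratio of the means, 8.93, is imprecise.

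The remaining members were MYB72, too low to be compared, and BGLU42, whose groups overlapped. MYB72 (AT1G56160) reached 0.0284 FPKM, an estimated 1.06 fragments, in fip37-4 LEC1:FIP37 replicate 2 and was listed at 0 in the other 5 libraries. A count of 0 allows up to 3 fragments a library, or between 0.0833 and 0.0945 FPKM for this transcript in wild-type. A level below that may be present and still be listed at 0. Its locus overlaps AT1G56165 on the other strand by 829 bases in the RefSeq annotation and shares 72.7% of its stretches of 50 bases with it. AT1G56165 has no listed values, so how reads of the overlap were assigned is not known. BGLU42 (AT5G36890) was at 7.87, 7.21 and 7.67 FPKM in wild-type and at 7.33, 7.34 and 8.04 FPKM in fip37-4 LEC1:FIP37. The groups overlapped, with a ratio of 0.998.

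**Figure D1:**
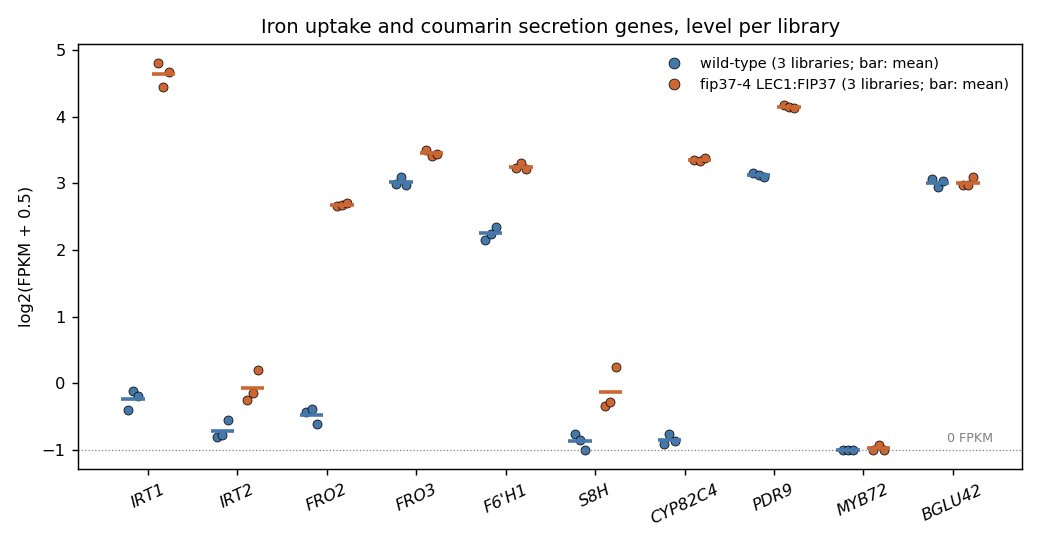
Level of each of the 10 genes as log2(FPKM + 0.5), with 1 point per library and a bar at the mean of each group of 3. IRT1, FRO2 and CYP82C4 lie near the level of 0 FPKM in wild-type and far above it in fip37-4 LEC1:FIP37, FRO3, F6'H1 and PDR9 shift by 1.02 or less on this scale, and BGLU42 and MYB72 overlap.

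In all, 8 of the 10 loci were higher in every fip37-4 LEC1:FIP37 library than in any wild-type library, where 31.9% of all features tested were so. Nothing is read from that count, because the loci were chosen with these values known. Their median log2 difference was 0.87, taken over all 10 loci, also those below the filter given next. The median over all features tested, which had passed that filter, was -0.0019, so the sets are not alike. The 10 loci together held 28.4, 28.7 and 28.5 FPKM in wild-type replicates 1 to 3 and 88.2, 81.4 and 86.5 FPKM in the others. The filter of 0.5 FPKM in 3 libraries was passed by 7 loci, and IRT1, FRO2 and CYP82C4 passed it only through the fip37-4 LEC1:FIP37 libraries. IRT2, S8H and MYB72 stayed below it.

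The levels also changed their order. In wild-type PDR9 was highest at 8.25 ± 0.209 FPKM (SD over 3 libraries, as in all later means), followed by FRO3 at 7.64 ± 0.353 and BGLU42 at 7.58 ± 0.335, which did not differ beyond their spread. F6'H1 came next at 4.26 ± 0.337 FPKM, and IRT1, FRO2, IRT2 and CYP82C4 lay at 0.354 ± 0.0874 FPKM or below. In fip37-4 LEC1:FIP37 the order was IRT1, PDR9 at 17.2 ± 0.302, FRO3 at 10.5 ± 0.391, CYP82C4 at 9.75 ± 0.193 and F6'H1 at 9.02 ± 0.297 FPKM. BGLU42 at 7.57 ± 0.404 and FRO2 at 5.92 ± 0.125 FPKM followed, then IRT2 and S8H. The reductase FRO2 was therefore below its partner IRT1 in fip37-4 LEC1:FIP37. In wild-type FRO2 was at 0.223 ± 0.0582 FPKM, with an estimated 58 fragments in all against 45.5 for IRT1. Their order there is therefore uncertain.

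The promoters of the members that differed most are shown because FIT and its partners bind E-boxes, the 6-letter element CANNTG, and the bHLH regulators above them bind the G-box CACGTG. The windows are the 250 bases before the annotated gene start, from the RefSeq genome and annotation of TAIR10.1, read 5′ to 3′ on the gene's strand. Capitals mark CANNTG, which reads as itself on both strands and includes CACGTG.
IRT1 (chr4:10707094-10707343, plus strand): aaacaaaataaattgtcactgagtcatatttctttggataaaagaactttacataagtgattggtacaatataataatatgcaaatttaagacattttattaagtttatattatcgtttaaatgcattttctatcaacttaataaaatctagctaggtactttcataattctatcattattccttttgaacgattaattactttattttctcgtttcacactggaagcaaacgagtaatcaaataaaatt
FRO2 (chr1:208745-208994, plus strand): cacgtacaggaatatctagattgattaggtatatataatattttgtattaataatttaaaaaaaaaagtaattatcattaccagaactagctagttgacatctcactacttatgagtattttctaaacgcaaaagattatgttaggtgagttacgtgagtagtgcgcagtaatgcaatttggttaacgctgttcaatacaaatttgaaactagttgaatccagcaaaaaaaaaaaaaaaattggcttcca
CYP82C4 (chr4:15451738-15451987, plus strand): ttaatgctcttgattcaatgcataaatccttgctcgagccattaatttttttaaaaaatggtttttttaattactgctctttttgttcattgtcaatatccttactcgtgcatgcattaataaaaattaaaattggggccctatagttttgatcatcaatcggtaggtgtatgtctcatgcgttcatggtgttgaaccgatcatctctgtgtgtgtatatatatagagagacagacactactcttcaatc
F6'H1 (chr3:4449009-4449258, plus strand): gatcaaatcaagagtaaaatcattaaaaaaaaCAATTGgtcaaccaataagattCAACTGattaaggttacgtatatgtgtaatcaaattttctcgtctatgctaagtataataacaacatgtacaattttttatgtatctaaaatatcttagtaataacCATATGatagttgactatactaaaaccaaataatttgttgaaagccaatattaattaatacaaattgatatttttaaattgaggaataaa
S8H (chr3:4104213-4104462, plus strand): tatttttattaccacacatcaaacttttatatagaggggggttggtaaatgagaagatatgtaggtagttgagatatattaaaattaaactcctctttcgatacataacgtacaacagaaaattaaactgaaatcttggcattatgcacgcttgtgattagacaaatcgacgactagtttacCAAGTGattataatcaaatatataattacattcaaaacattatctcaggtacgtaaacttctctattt
PDR9 (chr3:19825017-19825266, plus strand): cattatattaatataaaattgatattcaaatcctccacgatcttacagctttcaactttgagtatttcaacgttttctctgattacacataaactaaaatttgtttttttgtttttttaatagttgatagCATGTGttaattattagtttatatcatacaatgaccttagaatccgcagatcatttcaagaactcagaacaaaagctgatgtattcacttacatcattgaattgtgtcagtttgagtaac
No CANNTG was found in the windows of IRT1, FRO2 and CYP82C4. F6'H1 held 3, at -218, -196 and -90 bases counted from the gene start, S8H held 1 at -68 and PDR9 held 1 at -120. The windows of IRT2, FRO3, MYB72 and BGLU42, which are not printed, held none, so that 3 of the 10 loci had a match, where 55.3% of 27443 protein-coding genes have one. CACGTG was in none of the 10 and in 6.49% of all promoters. The window of FRO2 lies before a longer transcript that the annotation also holds. The transcript in the files, AT1G01580.1, starts 213 bases downstream, and the 250 bases just before it hold 1 CANNTG at -9 and no CACGTG. A match is only a run of letters, and its absence from so short a window says nothing about elements further upstream.

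Isoform values added a difference that the summed levels hide. For BGLU42 the authors' files list AT5G36890.1 and AT5G36890.2, whose sum was steady. AT5G36890.2 was at 0.306, 0.175 and 0.192 FPKM in wild-type and at 2.59, 1.26 and 2.55 FPKM in fip37-4 LEC1:FIP37. AT5G36890.1 was at 7.56, 7.04 and 7.48 FPKM in wild-type and at 4.75, 6.09 and 5.49 FPKM in the other group, so 1 isoform was lower where the other was higher. The share of AT5G36890.2 was 2.94 ± 0.823% in wild-type (SD, n = 3). It was 28.0 ± 9.63% (SD, n = 3) in fip37-4 LEC1:FIP37, lowest there in replicate 2 at 17.1%.

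In the RefSeq annotation these isoforms differ at the 3′ end. AT5G36890.1 has 13 exons and ends in an exon of 642 nt. AT5G36890.2 stops that exon after 182 nt, skips 646 nt as an intron and adds a last exon of 243 nt. The isoform shares were looked at after the values were seen, and they were not tested. Among 2260 nuclear loci with 2 listed isoforms and at least 5 FPKM in each library, shares did not overlap between the groups in 16.7%. A non-overlapping difference at least as large as the 25.1 percentage points of BGLU42 was found in 4 loci with BGLU42 included, or 0.177%.

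IRT1 also has 2 listed isoforms, and both were far higher in fip37-4 LEC1:FIP37. AT4G19690.2, the full-length form of 3 exons and 1479 nt, was at 16.6, 18.0 and 19.9 FPKM there, against 0.231, 0.429 and 0.124 FPKM in wild-type. AT4G19690.1, a single exon of 782 nt, was at 10.8, 3.23 and 5.11 FPKM there, or 39.3%, 15.2% and 20.5% of the locus, against 0.0265, 0 and 0.251 FPKM in wild-type. The short form varied more between replicates than the full-length form. Its annotation ends 85 bases into the first intron of AT4G19690.2. The junction is shown because those bases separate the listed forms. Unspliced RNA of the locus would hold them too, and it was not told apart from the short form. The 85 bases are in capitals, after the last 30 bases of the first exon. The last 10 bases of the intron and 30 bases of the second exon follow in lower case.
IRT1 junction (chr4:10708045-10708199, plus strand, TAIR10.1): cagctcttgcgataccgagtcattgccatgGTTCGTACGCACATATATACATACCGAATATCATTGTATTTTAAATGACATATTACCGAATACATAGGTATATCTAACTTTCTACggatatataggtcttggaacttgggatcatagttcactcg
FRO3 showed no such difference. Its second isoform held 25.4%, 14.1% and 12.4% of the locus in wild-type and 8.36%, 18.4% and 17.3% in the other group. The isoforms of IRT2 were too low to be read. Cufflinks assigns shared reads to isoforms by a model, so isoform values are less certain than sums.

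**Figure D2:**
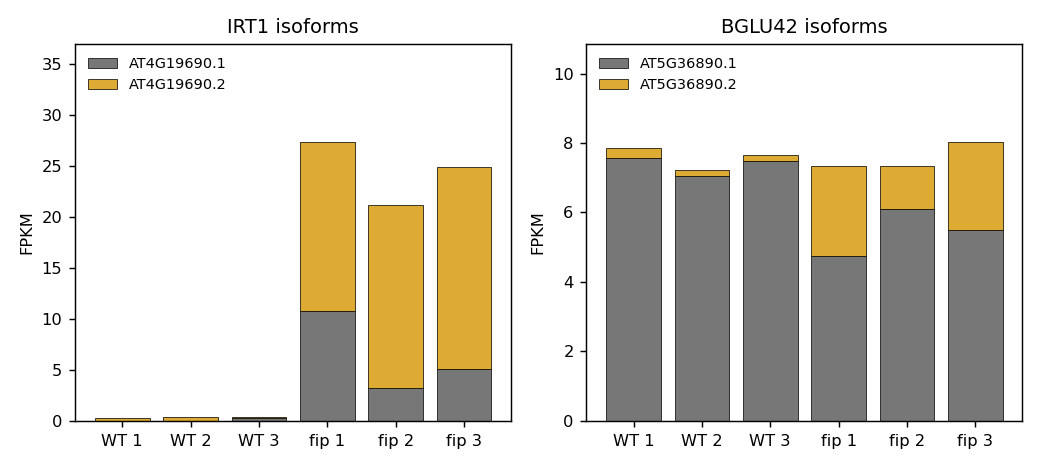
FPKM of the listed isoforms of IRT1 and BGLU42, stacked, in each library (WT, wild-type; fip, fip37-4 LEC1:FIP37). The stacks of BGLU42 are of like height, while AT5G36890.2 takes 2.42% to 3.89% of them in wild-type and 17.1% to 35.3% in the other group.

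Regulators of the iron response mostly rose. Of 23 listed genes 20 were tested, of which 13 rose and 3 fell (80% called, beside 58.6% of all features), with a median log2 fold change of 0.51. The locus AT2G30766, which has no symbol in the reference table and is listed here as IMA3, a peptide gene of the iron response, rose from 0.343, 1.104 and 0.615 to 11.4, 11.02 and 15.3 FPKM. That is a log2 fold change of 3.50 ± 0.24 (SE), with limma adjusted p = 3.78e-05. AT1G47395, listed as IMA2, rose from 1.87 ± 0.492 to 8.82 ± 1.40 FPKM, by 1.99 on the log2 scale (adjusted p = 4.55e-05).

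The bHLH38 group, the transcription factors that pair with FIT, rose in all of its members, bHLH38, bHLH39, bHLH100 and bHLH101. The first (AT3G56970) was at 0.187, 0.137 and 0.119 FPKM in wild-type and at 1.86, 2.86 and 2.65 FPKM in fip37-4 LEC1:FIP37 (log2 fold change 2.18 ± 0.14, limma adjusted p = 7.71e-06). bHLH39 (AT3G56980) rose from 0.670 ± 0.0901 to 2.99 ± 0.632 FPKM (log2 fold change 1.56, adjusted p = 4.02e-05). bHLH101 rose by 1.51 and bHLH100, at most 0.055 FPKM in wild-type, by 1.53 on the log2 scale. Along with MYB10, bHLH38, bHLH100 and bHLH101 passed the filter only through the fip37-4 LEC1:FIP37 libraries, so the count of genes that rose is favoured by the filter. Without fip37-4 LEC1:FIP37 replicate 2 or 3, 8 regulators were higher, since these 4 were then not tested and PYE lost its call. FIT (AT2G28160; FRU in RefSeq) rose less, from 2.50 ± 0.112 to 3.90 ± 0.256 FPKM (log2 fold change 0.55, adjusted p = 0.000347).

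Of the upstream bHLH factors 3 fell. bHLH104 fell by 0.47, bHLH115 by 0.29 and ILR3 by 0.21 on the log2 scale (limma adjusted p = 0.000657, 0.00743 and 0.0198), while bHLH34 and bHLH121 had log2 fold changes of 0.15 and 0.0084 and did not pass (adjusted p = 0.19 and 0.905). After quantile normalization bHLH115 was at -0.11 and ILR3 at -0.0074 (adjusted p = 0.148 and 0.919), bHLH121 passed as higher at 0.15 (adjusted p = 0.0422), and the list had 15 higher and 1 lower. ILR3 also lost its call without wild-type replicate 1 or 3 (adjusted p = 0.080 and 0.0512). BTS, a ubiquitin ligase that targets such factors, and its relative AT1G74770, listed as BTSL1, rose by 0.39 and 1.16 on the log2 scale (adjusted p = 0.000538 and 1.20e-05). PYE, a repressor of the response, rose by 0.30 (adjusted p = 0.0199). That call did not hold when wild-type replicate 1 or 2 was left out (adjusted p = 0.072 and 0.0669), nor without replicate 2 or 3 of fip37-4 LEC1:FIP37 (adjusted p = 0.0626 and 0.0632). The genes named in this and the previous paragraph other than bHLH38 and bHLH39 were chosen after their values were seen.

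Of 11 listed relatives of the members in reduction and uptake 9 were tested, 6 rose and 2 fell, with a median of 0.45, beside 27.6% higher and 30.9% lower over all features. The other gene that fell, AHA1, a proton pump gene chosen after its values were seen, was at -0.15 (limma adjusted p = 0.0318) and turned to 0.17 after quantile normalization (adjusted p = 0.00788). FRO8 (AT5G50160), a reductase of mitochondria, rose from 3.95 ± 0.306 to 7.93 ± 0.704 FPKM (log2 fold change 0.92, limma adjusted p = 3.21e-05). FRO6, a reductase of the leaf cell surface, rose from 13.2 ± 0.266 to 20.3 ± 1.104 FPKM (log2 fold change 0.60, adjusted p = 3.04e-05). AHA7, a proton pump gene induced by iron shortage, rose by 0.64 on the log2 scale (adjusted p = 0.000577), from 0.697 ± 0.0567 FPKM. IRT3 (AT1G60960), a ZIP transporter of zinc and iron, fell from 13.2, 13.1 and 14.8 to 5.46, 5.56 and 5.32 FPKM (log2 fold change -1.26 ± 0.06, adjusted p = 2.11e-06). IRT1 and IRT3, of the same family, therefore differed in direction.

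Of 19 listed genes of coumarin synthesis and the phenylpropanoid steps that feed it, 16 were tested, 11 rose and 1 fell, with a median of 0.24. Over all features 27.6% were higher and 30.9% lower. The coumarate ligase gene 4CL1 (AT1G51680) rose from 29.1 ± 0.483 to 64.6 ± 1.37 FPKM (log2 fold change 1.14 ± 0.04, limma adjusted p = 6.82e-07). PAL1, which starts the pathway, and HCT rose by 0.64 and 0.62 on the log2 scale (adjusted p = 1.05e-05 and 3.27e-05). BGLU22, a beta-glucosidase of roots, fell from 10.1 ± 0.343 to 7.26 ± 0.593 FPKM (log2 fold change -0.46, adjusted p = 0.000481), whereas its neighbour BGLU21 had a log2 fold change of 0.42. These neighbours are similar, and reads may be split between them. F6'H2, the paralogue of F6'H1, was at most 0.123 FPKM in any library.

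Of 17 listed genes that move iron inside the plant 15 were tested, 9 rose and 3 fell, with a median of 0.43, where 27.6% of all features were higher and 30.9% lower. NAS2 (AT5G56080), which makes the iron chelator nicotianamine, rose from 0.244, 0.0639 and 0.0367 to 3.12, 2.75 and 2.46 FPKM (log2 fold change 2.42 ± 0.15, limma adjusted p = 5.37e-06), and it passed the filter only through the second group. NAS3 fell from 2.87 ± 0.175 to 0.704 ± 0.016 FPKM (log2 fold change -1.48, adjusted p = 4.24e-06). The NAS genes are similar in sequence, so single values are uncertain. MTP3, a vacuolar zinc transporter, and ZIF1, which loads nicotianamine into the vacuole, rose by 0.97 and 0.96 (adjusted p = 7.52e-05 and 2.60e-06).

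Of 10 listed iron storage genes 7 were tested, 5 fell and 1 rose, with a median of -0.38, where 30.9% of all features were lower and 27.6% higher. The vacuolar transporter gene VTL2 fell from 2.08 ± 0.144 to 0.802 ± 0.247 FPKM (log2 fold change -1.0045, limma adjusted p = 0.000478). The ferritin gene FER4 fell from 38.9 ± 1.346 to 21.3 ± 1.18 FPKM (log2 fold change -0.85, adjusted p = 6.42e-06), and FER1, the most abundant ferritin, from 84.7 ± 1.41 to 61.9 ± 4.65 FPKM (log2 fold change -0.45, adjusted p = 0.00025). FER2, the seed ferritin, rose from 1.09 ± 0.235 to 1.70 ± 0.249 FPKM (log2 fold change 0.47, adjusted p = 0.0159). After quantile normalization only 2 of these genes were called, both lower, and FER1 was at -0.14 with adjusted p = 0.16. FER2 lost its call under that setting (adjusted p = 0.0594) and without wild-type replicate 2 (0.0585) or fip37-4 LEC1:FIP37 replicate 2 (0.0571).

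Of 12 zinc and copper genes, listed for comparison, 9 were tested, 2 rose and 4 fell, with a median of -0.10. That is 66.7% called, near the 58.6% of all features, and the median was 0.05 after quantile normalization. ZIP5, ZIP3 and ZIP1, transporters of the zinc response, fell by 0.86, 0.78 and 0.74 on the log2 scale (limma adjusted p = 3.02e-05, 0.000129 and 0.000146). SPL7, the regulator of the copper response, rose from 4.62 ± 0.232 to 6.07 ± 0.180 FPKM (log2 fold change 0.36, adjusted p = 0.00123). The members and lists were not compared with each other by a test, so a different share of calls is a description.

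**Figure D3:**
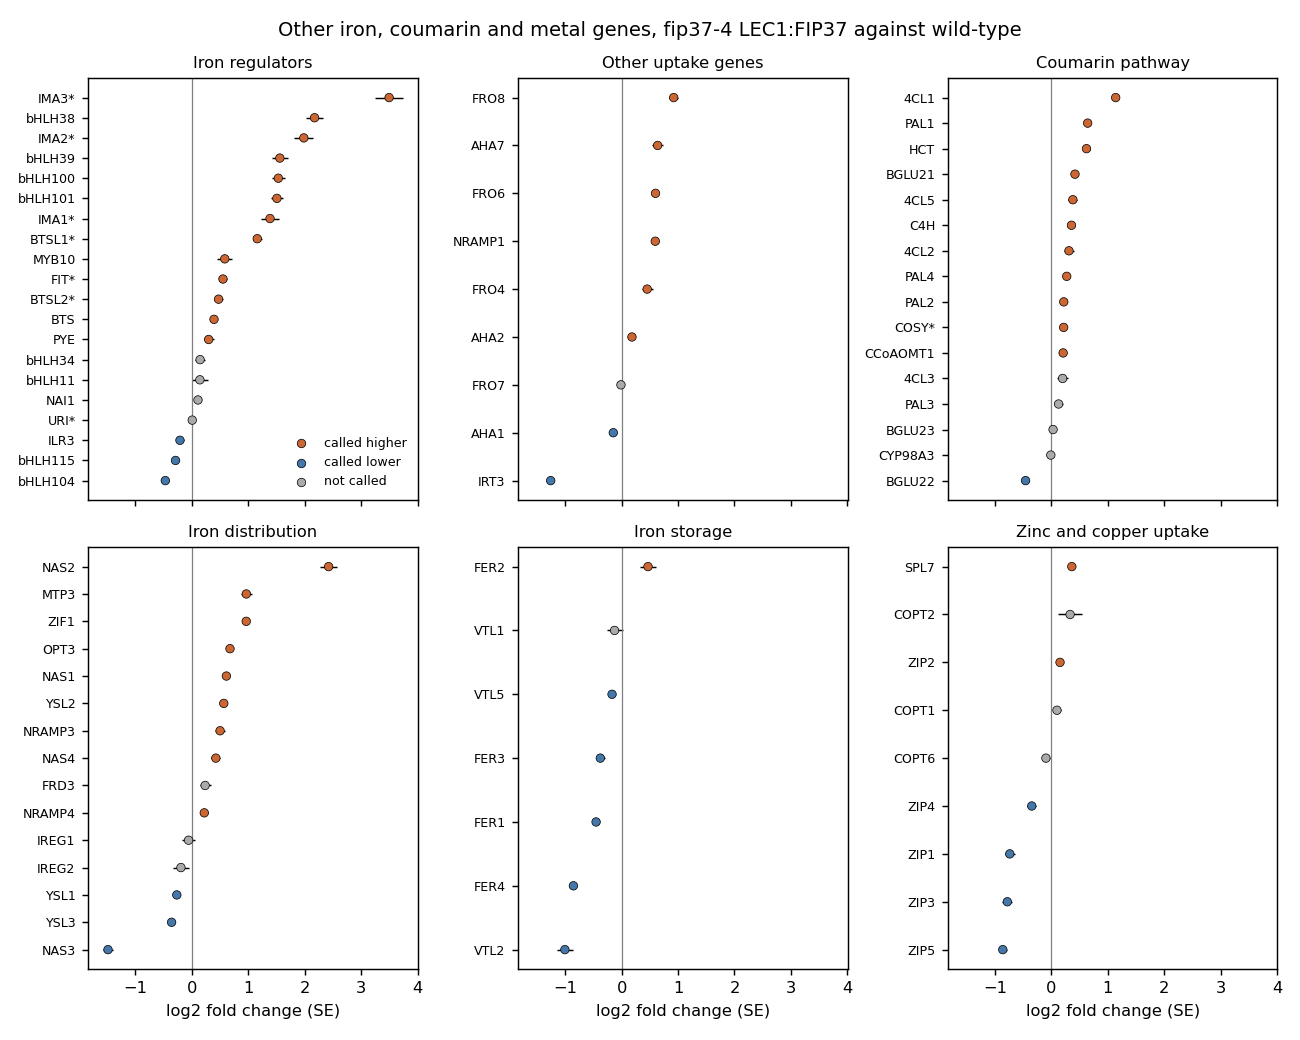
Log2 fold change with its standard error for the 76 tested genes of the 6 other lists, fip37-4 LEC1:FIP37 against wild-type, coloured by the call at an adjusted p under 0.05. An asterisk marks names with no exact match among the symbols of the reference table. Regulators spread up to 3.50, while 5 of 7 storage genes lie below 0 and are called.

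Genes with a profile nearest to IRT1 over the 6 libraries were found by Euclidean distance between log2 values centred on the wild-type mean. CYP82C4 was nearest of 19382 features, AT2G30766 (listed as IMA3) the fourth and FRO2 the fifth. Nothing is read from these ranks, since members and lists were chosen with results of these data known. IRT1, CYP82C4 and FRO2 also passed the filter only through fip37-4 LEC1:FIP37, and the distance mostly follows the size of the group difference. Outside the lists the nearest were AT2G11270, MBP1 (AT1G52040), FIP37 itself, AT5G53230 and the assembled transcript TCONS_00098258, at distances of 2.09, 2.15, 3.41, 3.51 and 3.53, against 1.19 for CYP82C4. Since nearness to IRT1 selects genes that are high in fip37-4 LEC1:FIP37, the values of these loci are a description with no test. AT2G11270 averaged 14.1 FPKM in wild-type and 193 FPKM in fip37-4 LEC1:FIP37, and MBP1 averaged 2.91 and 42.7 FPKM. AT5G53230 was at most 0.12 FPKM in wild-type and at 4.19, 3.50 and 3.45 FPKM in the other group, through which alone it passed the filter. TCONS_00098258 was listed at 0 in wild-type replicates 1 and 3 and at 8.09 FPKM in replicate 2, against 18.6, 25.8 and 20.1 FPKM.

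Most of the members act in the root epidermis, and genes listed as root markers differed between the groups. The libraries are of whole seedlings, so the values of these markers may include expression outside the root. The 7 root hair markers (RHD6, RSL4, COBL9, EXPA7, EXPA18, PRP3 and LRX1) summed to between 3.95 and 4.25 FPKM in wild-type and between 7.07 and 7.78 FPKM in fip37-4 LEC1:FIP37. Of the 4 tested, all rose, RHD6 and RSL4 having passed the filter only through fip37-4 LEC1:FIP37, and EXPA7 by 0.81 on the log2 scale (limma adjusted p = 0.000207). Beside this and the marker counts that follow, 27.6% of all features tested were called higher and 30.9% lower. The non-hair epidermis markers GL2 and WER both fell, WER having passed the filter only through wild-type, and their sum went from between 3.92 and 4.28 to between 1.11 and 1.23 FPKM. None of these epidermal markers was at 0 in all libraries of a group. The genes listed as endodermal markers were SHR, SCR, CASP1, CASP2 and MYB36, with 2 of 5 higher and 2 lower. They summed to between 32.1 and 33.6 FPKM in wild-type and to between 28.0 and 30.01 FPKM in the other group. That sum mixes opposite changes. The mean of SHR rose from 3.43 to 8.17 FPKM, and SCR rose by 0.28 on the log2 scale. The mean of CASP1 fell from 16.6 to 9.56 FPKM and that of CASP2 from 5.65 to 3.42 FPKM. MYB36 was not called. The root cells in which SHR is transcribed were not told apart, so the sum is not read as a level of the endodermis. Stele markers summed to between 19.3 and 19.7 and to between 25.9 and 26.3 FPKM, with 1 of 3 higher and 1 lower. The higher sum came from PHO1 alone, whose mean went from 10.5 to 18.0 FPKM. WOL fell from 2.98 to 2.28 FPKM, and APL, at 6.15 and 5.81 FPKM, was not called. The label says whole plants, and which green organs the leaf mesophyll markers came from was not tested. These 4 markers, RBCS1A, LHCB1.1, CA1 and GAPA, all rose, with sums from 10798 to 10932 and from 16582 to 19358 FPKM. After quantile normalization 3 of these 4 were called, with a median log2 fold change of 0.22 in place of 0.68, and LHCB1.1 was at 0.018 (adjusted p = 0.827). The part of these markers in the levels of IRT1, FRO2 and the coumarin genes was not tested.

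**Figure D4:**
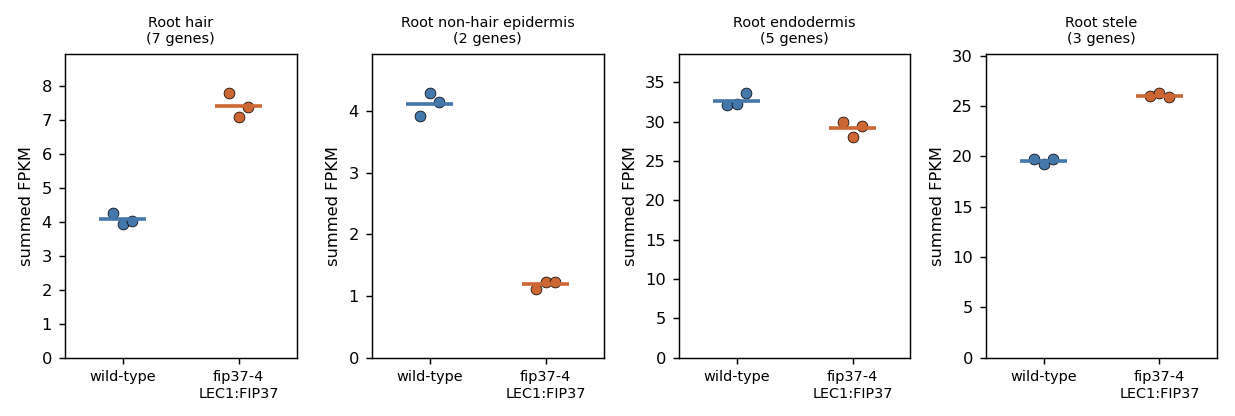
Summed FPKM of the genes listed as markers of 4 root cell types in each library of whole seedlings, with a bar at the mean of each group of 3. Expression outside the root may be included. Root hair markers sum to between 3.95 and 4.25 FPKM in wild-type and between 7.07 and 7.78 FPKM in fip37-4 LEC1:FIP37, and non-hair markers differ in the opposite direction.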

How the data were processed

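The deposited files hold FPKM for each transcript. The submitters' processing notes name TopHat2 2.0.9, Cufflinks 2.1.1 and TAIR10, and per the labels' protocols directional libraries were made from RNA depleted of ribosomal RNA. The files themselves do not state the unit. The annotation and use of strand are not given in the sources used here. Isoform values were summed per locus. Depth is not given, but low values of transcripts of at least 1000 nt moved in steps of 1 fragment, which gave the value of 1 fragment and the fragment estimates, which cover counting error only. Depth estimated in this way ran from 0.792 to 1.12 times that of wild-type replicate 1.

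The 19383 features that reached 0.5 FPKM in 3 or more of the 6 libraries were tested as log2(FPKM + 0.5) with limma 3.58.1 in R 4.3.3, on genotype alone, with a mean trend, robust moderation and p-values adjusted by Benjamini-Hochberg. The fit was run on simulated data with independent noise only as a check of the code, and no result here rests on that. Members and lists were chosen with earlier results of these data known. Of 123 listed loci, 108 carried the same symbol in the RefSeq table of TAIR10.1. Text names the members, FIP37, up to 4 called loci per list with the largest absolute log2 fold change, the 5 loci nearest to IRT1, and others said to be chosen after their values were seen. Also chosen so were CYP82C2, CYP82C3, BGLU21, F6'H2, ZIP2, AHA1 and the markers named singly. Sequences came from the RefSeq genome of TAIR10.1 through locus codes, since the files hold no coordinates.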

Additional observations from a re-analysis of the deposited data

How the results depend on the processing

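The median log2 difference of the 10 members, 0.87, was 1.23 with a pseudocount of 0.1 FPKM and 0.69 with 1 FPKM, and it ran from 0.79 to 0.93 with 1 library left out. With 0.1 FPKM added, the log2 differences of IRT1, FRO2 and CYP82C4 were 5.77, 4.24 and 5.99, and with 1 FPKM 4.23, 2.50 and 3.35. After quantile normalization 2 of 7 storage genes were called in place of 6; the cause was not tested. Between 4 and 6 storage genes were called with 1 library left out. Total calls in the other 5 iron and metal lists and over all genes stayed within 1.5 times over the 15 alternatives, which also covered filters of 1 FPKM and none, plain empirical Bayes, rescaling to nuclear loci and each transcript on its own. Their split moved further: regulators went from 13 higher and 3 lower to 15 and 1 after quantile normalization, uptake genes that fell from 2 to 1, coumarin genes that fell from 1 to 2 and zinc and copper genes that rose from 2 to 3 there. Zinc and copper genes that rose went to 1 with the block, plain empirical Bayes or rescaling, when ZIP2 lost its call. With the replicate number as a block 10879 genes were called in place of 11357. Same-numbered libraries did not deviate together (r = -0.028, -0.049 and -0.057), and pairs with unlike numbers ran from -0.046 to 0.099. With 3 libraries per group this cannot tell whether same-numbered samples were grown or prepared together. Leaving out a fip37-4 LEC1:FIP37 library removes from the test genes that pass the filter only there, such as bHLH38 and NAS2. For the same reason 2 root hair markers in place of 4 were called then, and 1 of the non-hair markers in place of 2 without any single wild-type library. Depth limits MYB72, S8H and IRT2, which rest on few fragments.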
